A study of Mus musculus with 18 samples.

Results

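The genes described here are 10 members of the BCL2 family, the proteins that decide at the mitochondrial outer membrane whether a cell starts apoptosis. They were chosen by name: the survival genes Bcl2, Bcl2l1 and Mcl1, the pore formers Bax and Bak1, and the BH3-only death genes Bid, Bad, Bbc3, Pmaip1 and Bcl2l11. Of these, 9 were measured among 19938 genes. Bax had no array feature with a single gene symbol in the annotation used and was not analysed here.

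In a living cell the survival proteins hold the pore formers in check at the outer membrane of the mitochondrion. BH3-only proteins, which are switched on by damage, missing growth signals or death receptors, either block the survival proteins or engage the pore formers directly, and the resulting pores release cytochrome c, which starts the caspase cascade. The alveolar type II cell, the lung epithelial cell that makes surfactant and renews the alveolar lining, is one of the cells that a high oxygen concentration injures.

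RNA of isolated alveolar type II cells from mice of 7 to 8 weeks was measured on 18 expression arrays, in 6 groups of 3. The Cebpa-deleted cells had the genotype CCSP/rtTA/CEBPa(flx/flx), and the series design places the loss of the transcription factor C/EBPα in Clara cells from early gestation and in type II cells from near term. Controls were CEBP/a(flx/flx) littermates without the rtTA or the Cre gene, so both genotypes carry the floxed allele. Each genotype was sampled at 0, 2 and 24 h, which the series design calls hyperoxia although every sample description states air. The labels name neither an inducing drug nor the animals, so p-values measure only the spread between these samples, and 3 arrays a group limit the precision. Expression is given as log2 RMA values, and a difference was called where its Benjamini-Hochberg adjusted p from limma, over all genes, was below 0.05.

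The targeted gene followed its label on every array, although where its probes lie relative to the deleted part was not analysed here. Cebpa averaged 10.99 ± 0.05 (SD, n = 3) in control and 10.56 ± 0.12 in Cebpa-deleted cells at 0 h (difference -0.43, adjusted p = 0.429), and the Cebpa-deleted arrays were lower again at 2 h (difference -1.10, adjusted p = 0.00461) and at 24 h (difference -1.83, adjusted p = 8.19e-06). The mean of 10 type II cell markers was 12.46 to 13.32 on control arrays and 11.60 to 13.19 on Cebpa-deleted arrays, so type II transcripts were abundant everywhere. Other cells left traces that differed by genotype. At 24 h the mean of 8 lymphocyte markers was 7.86 to 8.22 on Cebpa-deleted and 6.70 to 7.40 on control arrays, that of 8 endothelial markers 9.14 to 9.27 against 8.18 to 8.79, and that of 7 fibroblast and smooth muscle markers 8.18 to 8.49 against 7.38 to 7.91. The endothelial mean differed already at 0 h, at 9.14 to 9.48 against 8.07 to 8.43. There 7 of 8 endothelial markers were called higher, beside 0.677% of all genes, with a median difference of 0.96 (0.72 at 24 h). No lymphocyte or fibroblast and smooth muscle marker was called at 0 h. The part of these cells in the differences of the members at 0 h was not tested. The spread of values within an array also differed. The interquartile range over all genes averaged 3.01 and 2.97 at 0 h, 2.25 and 2.35 at 2 h, and 2.47 and 1.94 at 24 h in control and Cebpa-deleted cells. In bulk RNA, fewer cells of a type and less RNA per cell cannot be told apart.

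Members moved in both directions within the first 2 h, in both genotypes, and a smaller share of them than of all genes was called. Bid rose, while Bbc3, Mcl1, Bcl2l1 and Bcl2l11 fell, so that 5 of 9 members were called in control cells, where 70.1% of all genes were called, and 5 of 9 in Cebpa-deleted cells, where 63.1% were. The fall of Bbc3 in both genotypes and the rise of Bid in control cells were also called under quantile normalization, whereas the falls of Mcl1 and Bcl2l1 in both genotypes and of Bcl2l11 in Cebpa-deleted cells turned into rises that were not called. All genes were put into 10 equal classes by mean level. Class 9, with Bcl2l1 and Bcl2l11, had median changes of -0.51 in control and -0.44 in Cebpa-deleted cells. Class 10, with Mcl1, had -0.53 and -0.51. Bcl2l1 (-0.28 and -0.36) and Mcl1 (-0.41 and -0.42) fell less than their classes. Bcl2l11 fell more in control (-0.65) and less in Cebpa-deleted cells (-0.31). Class 4, with Bbc3, had 0.25 and 0.19, and class 5, with Bid, 0.06 and 0.08. Cell type markers moved over the same step: 10 of 10 type II markers were lower in both genotypes (medians -0.72 and -0.74), lymphocyte markers were higher for 3 of 8 in control and 8 of 8 in Cebpa-deleted cells (medians 0.35 and 0.72), neutrophil markers for 4 and 2 of 6, and fibroblast and smooth muscle markers for 3 and 5 of 7. From 2 to 24 h 3 of 8 lymphocyte markers were lower in control cells, and 9 of 10 type II markers in Cebpa-deleted cells. The part of these markers' cells in the changes of the members was not tested.

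From 2 to 24 h a single member was called in control cells, Bad, which fell (12.4% of all genes), and none in Cebpa-deleted cells (31.4% of all genes). At an unadjusted limma p below 0.05 the latter comparison held 1 member, Bcl2, and 8752 of 19938 genes. Measured from 0 h, 5 members were called at 24 h in control cells (59.9% of all genes) and 7 in Cebpa-deleted cells (77.6% of all genes). All of these shares of members lie near or below the shares of all genes. The comparisons within a genotype share arrays with each other.

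Between genotypes no member was called at 0 h, where 0.858% of all genes were, or at 2 h, where 1.4% were. At an unadjusted limma threshold of 0.05, 1 member passed at each of these times: Bid at 0 h, whose difference was 0.34 (adjusted p = 0.201), and Pmaip1 at 2 h, whose difference was 0.28 (adjusted p = 0.434). Of all genes, 1845 and 2197 of 19938 passed it. At 24 h, 3 of 9 members were called against 50.7% of all genes: Bcl2 and Bad were higher in Cebpa-deleted cells and Bcl2l1 was lower. The median difference of the 9 members at 24 h was 0.07, beside 0.05 for all genes. The groups did not overlap for 5 of 9 members at 24 h, where they did not for 62.1% of all genes. At 0 h the Cebpa-deleted arrays lay wholly above the controls for 2 members and wholly below for 1 (17.3% of all genes did not overlap). At 2 h they did so for 1 and 1 (12.5%). At 24 h 9 of the 10 type II markers were lower in Cebpa-deleted cells, and 6 of 8 lymphocyte, 8 of 8 endothelial and 6 of 7 fibroblast and smooth muscle markers were higher. Type I markers were lower for 4 of 6 and macrophage markers for 3 of 8, and Clara and ciliated cell markers were higher for 3 of 5 and neutrophil markers for 2 of 6. The part of all these in the differences of the members was not tested. Of the 3 calls, Bcl2l1 alone was kept when the replicate number entered as a block, and none was kept with the interquartile range of the array in the model.

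**Figure D1:**
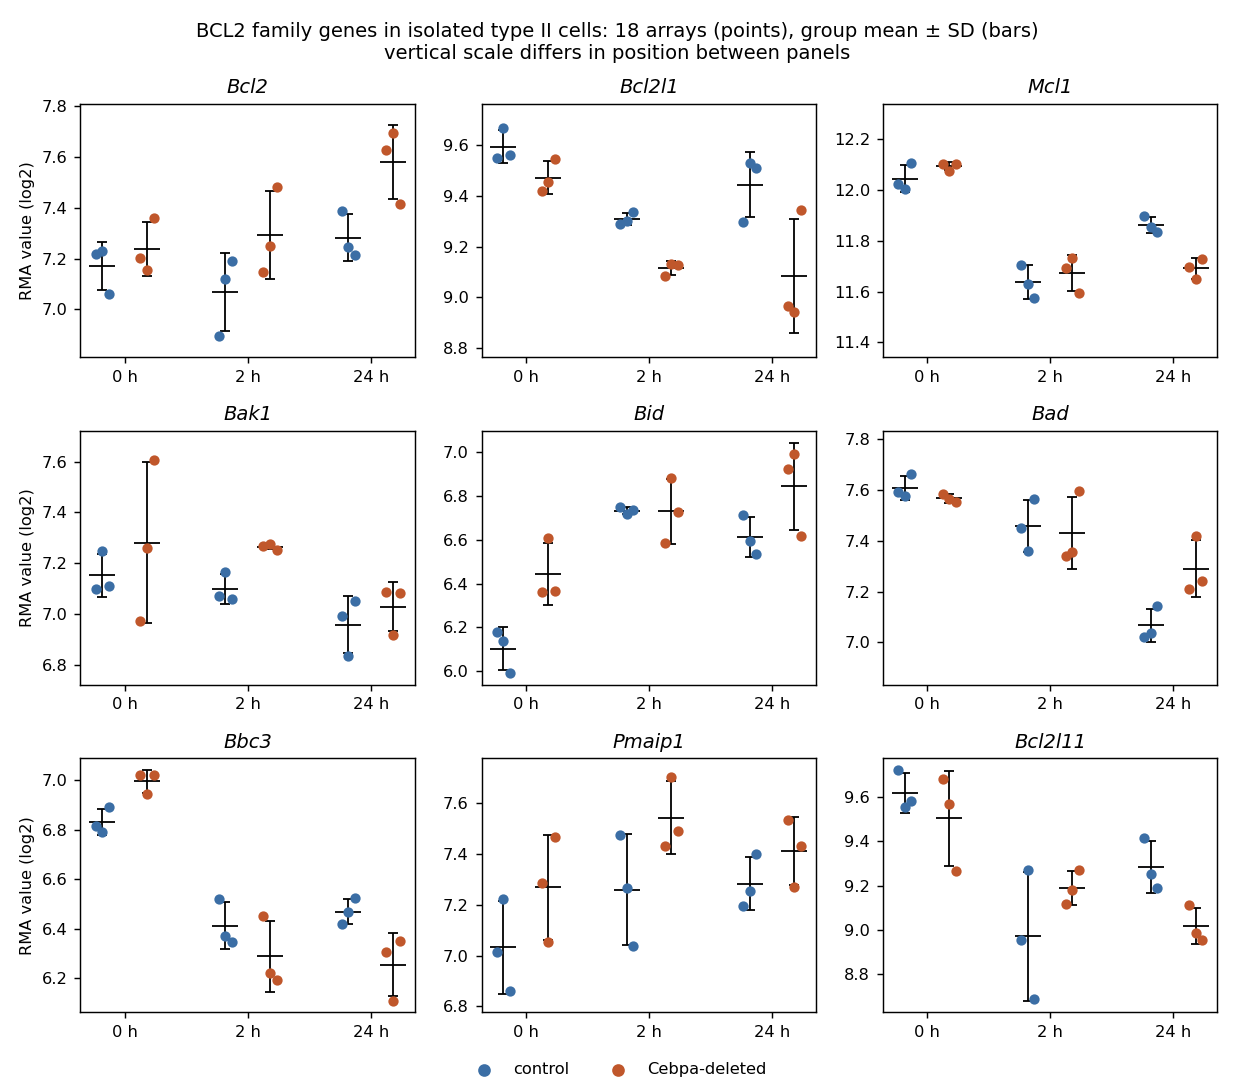
RMA values (log2, vertical axis) of the 9 measured BCL2 family genes on each array at 0, 2 and 24 h, with group mean ± SD as bars; blue is control and orange Cebpa-deleted. Bbc3 and Mcl1 stand highest at 0 h in both genotypes, Bid stands lowest there, and Bad falls to between 7.02 and 7.14 in control cells at 24 h.

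Among the survival genes, Bcl2, the founding member that guards mitochondria and endoplasmic reticulum, was the one called higher in Cebpa-deleted cells. Its control arrays read 7.22, 7.23 and 7.06 at 0 h, 6.90, 7.12 and 7.19 at 2 h, and 7.39, 7.24 and 7.21 at 24 h. Its Cebpa-deleted arrays read 7.20, 7.15 and 7.36 at 0 h, 7.15, 7.25 and 7.48 at 2 h, and 7.63, 7.70 and 7.42 at 24 h. The genotypes overlapped at 0 and 2 h, and at 24 h every Cebpa-deleted array lay above every control array, the closest pair being 7.42 and 7.39. The difference at 24 h was 0.30 (SE 0.11, adjusted p = 0.0319), so that Bcl2 stood at 122.9% of its control level when converted from log2. It kept its call in 2 of 6 fits that left out 1 array of these groups, and lost it without control replicate 2 or 3 (adjusted p = 0.0833 and 0.0954) or without Cebpa-deleted replicate 1 or 2 (adjusted p = 0.0929 and 0.132). Within Cebpa-deleted cells Bcl2 rose by 0.34 from 0 to 24 h (SE 0.11, adjusted p = 0.00878), whereas in control cells its change was 0.11 (adjusted p = 0.386). The 24 h difference was 0.44 under quantile normalization (adjusted p = 0.0114), and 0.06 with the array's interquartile range in the model, the latter not called. The test of whether the genotype difference itself grew from 0 to 24 h gave 0.23 (SE 0.16, adjusted p = 0.288).

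Bcl2 is also abundant in lymphocytes, whose markers were among those that moved with it. Of 8 lymphocyte markers, 6 were higher in Cebpa-deleted cells at 24 h, among them Il7r, the interleukin-7 receptor chain, by 1.75 (SE 0.32, adjusted p = 0.000599) and Ptprc, the pan-leukocyte antigen, by 1.33 (SE 0.23, adjusted p = 0.000465). Over the 18 arrays the 3 genes whose values were most like those of Bcl2 were Fyb, Dock10 and Dock11, with Pearson correlations of 0.85, 0.85 and 0.84. After each group's mean was subtracted they were Cyth4, Ms4a4b and Gm17359, with 0.86, 0.84 and 0.84. Over the 18 arrays the lymphocyte marker mean correlated with Bcl2 at 0.60, that of fibroblast and smooth muscle at 0.62, endothelial at 0.48 and type II at -0.65. With group means subtracted these stood, in this order, at 0.70, 0.25, 0.03 and -0.45. These are descriptions over 18 arrays that share 6 groups, with no test, and the part of RNA of lymphocytes or of these other cells in the Bcl2 difference was not tested.

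Bcl2l1 encodes Bcl-xL, the survival protein on which many epithelial cells depend, and it was the 1 member called lower in Cebpa-deleted cells at 24 h. Control arrays read 9.55, 9.67 and 9.56 at 0 h, 9.29, 9.30 and 9.34 at 2 h, and 9.30, 9.53 and 9.51 at 24 h. Cebpa-deleted arrays read 9.42, 9.45 and 9.54 at 0 h, 9.08, 9.13 and 9.13 at 2 h, and 8.97, 8.94 and 9.34 at 24 h. All Cebpa-deleted arrays lay below all control arrays at 0 h, where the closest pair was 9.54 and 9.55, and at 2 h, where it was 9.13 and 9.29. At 24 h the third Cebpa-deleted array, replicate 4, lay within the control range. The difference was -0.12 at 0 h (SE 0.10, adjusted p = 0.826), -0.19 at 2 h (SE 0.10, adjusted p = 0.514) and -0.36 at 24 h (SE 0.10, adjusted p = 0.00818), and its shift from 0 to 24 h, -0.24, was not called (adjusted p = 0.227). The 24 h call was lost without Cebpa-deleted replicate 2 (adjusted p = 0.0521), and the difference shrank to -0.0016 under quantile normalization (adjusted p = 0.991) and to -0.0041 once the trend of the values with gene level was taken out of every array (adjusted p = 0.978). Genes of its level, in class 9 of 10 equal classes by mean value, had a median difference of -0.36 at 24 h, the same as Bcl2l1 itself. Bcl2l1 also fell within each genotype in the first 2 h, by 0.28 in control (SE 0.10, adjusted p = 0.018) and 0.36 in Cebpa-deleted cells (SE 0.10, adjusted p = 0.00521), and under quantile normalization both changes turned positive, to 0.22 and 0.09. The control call was lost without replicate 2 at 0 h (adjusted p = 0.0668).

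Mcl1, a short-lived survival protein whose transcript turns over quickly, was in the top 1% of all genes by level, at the 99.4th percentile. Control arrays read 12.02, 12.0045 and 12.10 at 0 h, 11.71, 11.63 and 11.57 at 2 h, and 11.90, 11.85 and 11.83 at 24 h. Cebpa-deleted arrays read 12.10, 12.07 and 12.10 at 0 h, 11.69, 11.73 and 11.59 at 2 h, and 11.70, 11.65 and 11.73 at 24 h. Both genotypes dropped between 0 and 2 h with no overlap. At 24 h the control arrays lay between their 0 and 2 h values, whereas the Cebpa-deleted arrays lay at their 2 h level, all below the controls. The fall to 2 h was 0.41 in control cells (SE 0.08, adjusted p = 0.000137), to 75.4% of the 0 h level, and 0.42 in Cebpa-deleted cells (SE 0.08, adjusted p = 0.000142), to 74.7%. The genotype difference at 24 h, -0.17 (SE 0.08, adjusted p = 0.067), and the control change from 2 to 24 h, 0.23 (SE 0.08, adjusted p = 0.057), both missed the threshold. Under the other settings tried the 24 h difference ran from -0.24 to 0.14. Its shift from 2 to 24 h was not called either, at -0.21 (adjusted p = 0.134) and, under quantile normalization, 0.05 (adjusted p = 0.803). Whether Mcl1 fell at all depended on the scale: under quantile normalization the change to 2 h was 0.12 in control and 0.07 in Cebpa-deleted cells, and neither was called. The smaller fall from 0 to 24 h in control cells, 0.18 (SE 0.08, adjusted p = 0.0442), was lost in all 6 fits that left out 1 array (adjusted p from 0.0573 to 0.143). Under quantile normalization it turned into a called rise of 0.36 (adjusted p = 0.00123). The change from 0 to 24 h in Cebpa-deleted cells, -0.40 (adjusted p = 9.49e-05), likewise turned into a called rise of 0.36 (adjusted p = 0.000498).

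Bak1, a pore former that sits in the outer mitochondrial membrane, was not called in any of the 12 comparisons. Its values ran from 6.84 to 7.25 over the 9 control arrays and from 6.92 to 7.61 over the 9 Cebpa-deleted arrays. The widest group was Cebpa-deleted at 0 h, at 6.97, 7.26 and 7.61, and at 2 h all Cebpa-deleted arrays, from 7.25 to 7.27, lay above all control arrays, from 7.06 to 7.17. That 2 h difference was 0.17 (SE 0.12, adjusted p = 0.694), with a 95% interval from -0.08 to 0.42. In Cebpa-deleted cells its change from 0 to 24 h was -0.25 (SE 0.12, adjusted p = 0.0624), beside a median of -0.13 for genes of its level. Of 6 fits that left out 1 array, from -0.40 to -0.09, 1 called it, that without the low replicate 1 at 0 h (-0.40, adjusted p = 0.00301). Of 10 other settings, from -0.25 to -0.03, 0 called it.

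**Figure D2:**
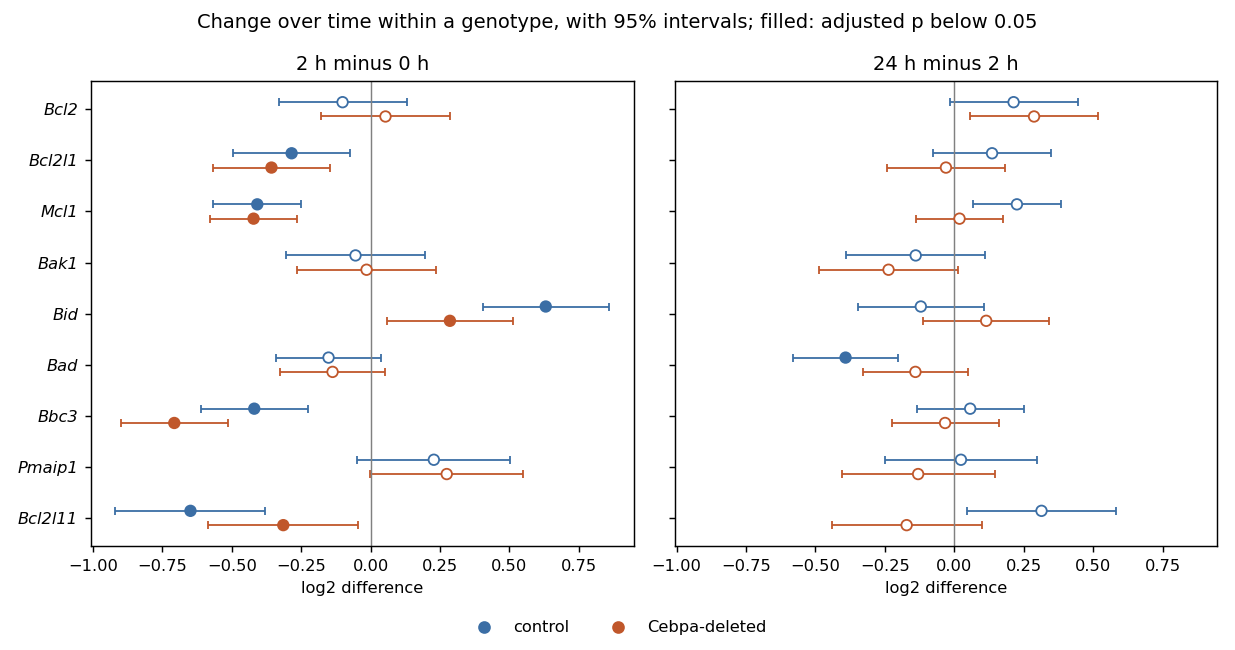
Change of each gene from 0 to 2 h (left) and from 2 to 24 h (right) on the log2 scale (horizontal axis), with 95% intervals, for control (blue) and Cebpa-deleted cells (orange); filled points have an adjusted p below 0.05. Bid is above 0 and Bbc3, Mcl1, Bcl2l1 and Bcl2l11 below 0 at left in both genotypes (Mcl1 and Bcl2l1, and Bcl2l11 in Cebpa-deleted cells, turn above 0 under quantile normalization), and Bad in control cells is the 1 filled point at right.

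The BH3-only genes gave the largest movements of the family, in both directions. Bid, which death receptor signalling cleaves by caspase 8 into its active form, was the 1 member called as rising by 2 h. Control arrays read 6.18, 6.14 and 5.99 at 0 h, 6.75, 6.72 and 6.74 at 2 h, and 6.71, 6.59 and 6.53 at 24 h. Cebpa-deleted arrays read 6.36, 6.61 and 6.37 at 0 h, 6.58, 6.88 and 6.73 at 2 h, and 6.92, 6.99 and 6.62 at 24 h. At 0 h every Cebpa-deleted array was above every control array, by 2 h the genotypes had met, and the 3 control arrays at 2 h were tightly grouped. Bid rose by 0.63 to 2 h in control cells (SE 0.11, adjusted p = 7.09e-05), to 154.9% of the 0 h level, and this call held in all 6 fits that left out 1 array. Its rise of 0.29 in Cebpa-deleted cells (SE 0.11, adjusted p = 0.0287) held in 2 of 6, being lost without replicate 1 or 3 at 0 h (adjusted p = 0.0941 and 0.0931) or replicate 3 or 4 at 2 h (adjusted p = 0.137 and 0.0583). Under quantile normalization these rises were 0.45 (adjusted p = 0.0024) and 0.20 (adjusted p = 0.142), and with the array's interquartile range in the model 0.34 and 0.05, neither called. The change to 2 h differed between the genotypes by -0.35 (SE 0.15, adjusted p = 0.764). In that comparison, the 0 to 2 h change in Cebpa-deleted minus that in control cells, limma called 0 members and 0% of all genes, with 2 members and 1279 genes at an unadjusted p below 0.05. At 24 h Bid stood 0.51 above its 0 h level in control cells (adjusted p = 0.000649) and 0.40 above it in Cebpa-deleted cells (adjusted p = 0.00262). The genotype difference at 24 h was 0.23 (SE 0.11, adjusted p = 0.0808), beside a median of 0.17 for genes of its level, in class 5. Of 6 fits that left out 1 array, 1 called it, that without Cebpa-deleted replicate 4 (0.35, adjusted p = 0.0125). Under the other settings tried the difference ran from 0.0061 to 0.28.

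Bbc3 encodes PUMA, a BH3-only protein that p53 and, under growth factor loss, FOXO factors induce, and it fell in both genotypes. Control arrays read 6.81, 6.79 and 6.89 at 0 h, 6.52, 6.37 and 6.35 at 2 h, and 6.42, 6.47 and 6.52 at 24 h. Cebpa-deleted arrays read 7.02, 6.94 and 7.02 at 0 h, 6.45, 6.22 and 6.19 at 2 h, and 6.31, 6.11 and 6.35 at 24 h. Every array at 2 and 24 h lay below every array of its genotype at 0 h. The Cebpa-deleted arrays were all above the controls at 0 h and all below them at 24 h. The genotypes did not overlap for 17.3% and 62.1% of all genes at these times. The fall to 2 h was 0.42 in control cells (SE 0.09, adjusted p = 0.000619), to 74.8%, and 0.71 in Cebpa-deleted cells (SE 0.09, adjusted p = 7.77e-06), to 61.3% of the 0 h level. Both calls held in all 6 fits that left out 1 array, and under quantile normalization the changes were -0.52 (adjusted p = 0.00138) and -0.73 (adjusted p = 0.000137). With the array's interquartile range in the model they were -0.19 (adjusted p = 0.586) and -0.52 (adjusted p = 0.0703). By 24 h Bbc3 was 0.36 below its 0 h level in control cells (adjusted p = 0.00259) and 0.74 below it in Cebpa-deleted cells (adjusted p = 1.05e-06).

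This change of order of the genotypes in Bbc3 was not called, and lay at the edge of the threshold. The difference was 0.16 at 0 h (SE 0.09, adjusted p = 0.649) and -0.21 at 24 h (SE 0.09, adjusted p = 0.0591), and its move from 0 to 24 h was -0.38 (SE 0.13, adjusted p = 0.056). No member was called in that comparison, in which 14.3% of all genes were, and 1 member, Bbc3, had an unadjusted limma p below 0.05, as had 7251 of 19938 genes. Quantile normalization gave -0.47 for the 24 h difference (adjusted p = 0.0044) and -0.57 for the move (adjusted p = 0.0406), and leaving out Cebpa-deleted replicate 4 at 24 h gave -0.26 (adjusted p = 0.0349) and -0.43 (adjusted p = 0.0269). With the array's interquartile range in the model the 24 h difference was -0.06 and was not called (adjusted p = 0.972). Genes of its level, in class 4, had a median difference of 0.27 at 24 h, of opposite sign.

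Bcl2l11 encodes BIM, which binds all survival proteins and, like PUMA, is a known FOXO target. Control arrays read 9.72, 9.56 and 9.58 at 0 h, 8.96, 9.27 and 8.69 at 2 h, and 9.42, 9.25 and 9.19 at 24 h. Cebpa-deleted arrays read 9.68, 9.57 and 9.26 at 0 h, 9.12, 9.18 and 9.27 at 2 h, and 9.11, 8.99 and 8.96 at 24 h. Control cells fell to 2 h without overlap and lay between both levels at 24 h, while the Cebpa-deleted arrays overlapped between 0 and 2 h and were lowest at 24 h. The fall to 2 h was 0.65 in control cells (SE 0.13, adjusted p = 0.000263), to 63.8%, and 0.31 in Cebpa-deleted cells (SE 0.13, adjusted p = 0.0406), to 80.4% of the 0 h level. The Cebpa-deleted call was lost without replicate 1 or 2 at 0 h (adjusted p = 0.17 and 0.111) or replicate 2 or 3 at 2 h (adjusted p = 0.096 and 0.083), and under quantile normalization the change turned to 0.14, that of control cells being -0.15 and not called (adjusted p = 0.463). From 0 to 24 h Bcl2l11 fell by 0.49 in Cebpa-deleted cells (adjusted p = 0.00219) and by 0.33 in control cells (adjusted p = 0.0323), the latter call being lost without replicate 1 or 3 at 0 h (adjusted p = 0.109 and 0.0519) or replicate 2 or 3 at 24 h (adjusted p = 0.0805 and 0.109), and both changes turned positive under quantile normalization, to 0.26 and 0.0734. The shift of the genotype difference from 2 to 24 h was -0.49 (SE 0.18, adjusted p = 0.0502). It missed the threshold, as did every member in that comparison (30.8% of all genes were called, and Bcl2l11 alone of the members, beside 9216 of 19938 genes, had an unadjusted limma p below 0.05). Of 12 fits that left out 1 array, 1 called it, that without control replicate 2 at 2 h (-0.63, adjusted p = 0.0218). The shift shrank to -0.10 under quantile normalization (adjusted p = 0.79) and to -0.11 once the trend with gene level was taken out (adjusted p = 0.777).

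Promoters of the 3 BH3-only genes called in the first 2 h are shown because each holds a match to the motif of the deleted factor or of FOXO, the family that induces BIM and PUMA. They are the 300 bases from 250 before to 50 after an annotated start, 5′ to 3′ on the gene's strand, from RefSeq on GRCm38.p6, with the match in capitals. Bid (chr6:120916775-120917074, minus strand) holds a C/EBP match 90 bases before its start. Bcl2l11 (chr2:128125788-128126087, plus strand) and Bbc3 (chr7:16310011-16310310, plus strand) hold FOXO matches 227 and 167 bases before the starts shown. Bcl2l11 had 2 windows and Bbc3 had 3, and of each gene only the window shown held the FOXO match.
Bid: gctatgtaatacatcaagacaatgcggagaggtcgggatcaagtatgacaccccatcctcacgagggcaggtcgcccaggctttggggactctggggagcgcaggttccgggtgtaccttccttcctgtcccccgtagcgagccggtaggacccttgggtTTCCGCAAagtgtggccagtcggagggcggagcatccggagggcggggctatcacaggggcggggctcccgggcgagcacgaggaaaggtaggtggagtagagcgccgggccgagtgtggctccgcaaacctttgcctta
Bcl2l11: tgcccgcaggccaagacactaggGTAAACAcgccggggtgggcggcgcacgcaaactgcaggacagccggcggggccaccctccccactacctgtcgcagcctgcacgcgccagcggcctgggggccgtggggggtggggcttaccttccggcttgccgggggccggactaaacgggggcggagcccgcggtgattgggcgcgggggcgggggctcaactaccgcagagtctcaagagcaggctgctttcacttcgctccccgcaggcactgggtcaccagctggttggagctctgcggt
Bbc3: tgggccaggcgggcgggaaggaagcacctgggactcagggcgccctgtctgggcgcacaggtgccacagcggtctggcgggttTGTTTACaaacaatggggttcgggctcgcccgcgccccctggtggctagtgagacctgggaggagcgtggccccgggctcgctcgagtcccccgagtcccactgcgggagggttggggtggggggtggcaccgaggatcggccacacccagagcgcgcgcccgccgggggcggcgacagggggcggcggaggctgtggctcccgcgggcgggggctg
The motifs were chosen with the values known, and each was searched on both strands of 32851 promoter windows of this length. The C/EBP letters TTGCNNAA occur in 10.8% of all windows and in 1 of the 15 windows of 9 of the 10 family genes, and the FOXO letters TGTTTAC in 3.65% and in 2 of 15. AP-1 (TGANTCA, 7.81% of all windows) and CRE (TGACGTCA, 1.79%) occur in none of the 15. The antioxidant response element (TGACNNNGC, 12.4%) was found at Bcl2l1, the E-box (CACGTG, 7.15%) at Bbc3 and Bax, and the NF-κB motif (8.46%) at Bbc3 and Bcl2l1. For p53 only a half-site (RRRCWWGYYY, 8.36%) was searched, and it was found at Bax. A match describes these letters only and does not show binding.

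Foxo3, which encodes a FOXO factor, was among the upstream regulators, of which 8 of 9 fell in control cells by 2 h, where 39.4% of all genes fell. Under quantile normalization 2 of these 9 fell and 1 rose. Foxo3 fell by 0.88 from 0 to 2 h in control cells (adjusted p = 2.9e-05) and by 0.88 in Cebpa-deleted cells (adjusted p = 4.27e-05), and under quantile normalization by 0.35 (adjusted p = 0.023) and 0.39 (adjusted p = 0.0141). Foxo1, the other FOXO gene of that list, fell by 0.30 in control cells (adjusted p = 0.00462) and changed by -0.0059 in Cebpa-deleted cells (adjusted p = 0.9565). Under quantile normalization its changes were 0.10 (adjusted p = 0.412) and 0.32 (adjusted p = 0.0113), the latter called as a rise. At 24 h Foxo3 was lower in Cebpa-deleted than in control cells (difference -0.56, SE 0.14, adjusted p = 0.00409), and the difference was -0.21 and not called under quantile normalization (adjusted p = 0.186). The part of Foxo3 or Foxo1 in the changes of Bcl2l11 and Bbc3 was not tested.

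Bad encodes a BH3-only protein that growth factor signalling keeps phosphorylated and inactive, and it was the 1 member called between 2 and 24 h. Control arrays read 7.59, 7.58 and 7.66 at 0 h, 7.45, 7.36 and 7.56 at 2 h, and 7.02, 7.04 and 7.14 at 24 h. Cebpa-deleted arrays read 7.58, 7.56 and 7.55 at 0 h, 7.34, 7.36 and 7.59 at 2 h, and 7.21, 7.42 and 7.24 at 24 h. The genotypes overlapped at 0 and 2 h, and at 24 h the 3 control arrays were below every other array of the study. In control cells Bad fell by 0.39 from 2 to 24 h (SE 0.09, adjusted p = 0.00807), to 76.2%, and by 0.54 from 0 to 24 h (SE 0.09, adjusted p = 7.4e-05), to 68.6% of the 0 h level. The fall from 2 to 24 h was called in all 6 fits that left out 1 array and under each of the other settings tried, from -0.33 with the array range as a covariate (adjusted p = 0.03) to -0.41 under quantile normalization (adjusted p = 0.00935). In Cebpa-deleted cells the same step was -0.14 (SE 0.09, adjusted p = 0.241, 95% interval from -0.33 to 0.05), and from 0 to 24 h Bad fell by 0.28 (SE 0.09, adjusted p = 0.00963).

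Bad thereby ended 0.22 higher in Cebpa-deleted than in control cells at 24 h (SE 0.09, adjusted p = 0.0476), at 116.7% of the control level. This call held in 2 of 6 fits that left out 1 array, and was lost without control replicate 1 or 2 (adjusted p = 0.131 and 0.113) or Cebpa-deleted replicate 1 or 2 (adjusted p = 0.0527 and 0.205), and was 0.26 under quantile normalization (adjusted p = 0.0532). The test of the difference between times gave 0.25 for 24 against 2 h (SE 0.13, adjusted p = 0.129), so an unequal fall in the genotypes was not shown; without Cebpa-deleted replicate 4 at 2 h it gave 0.33 (adjusted p = 0.0392). Genes of its level had a median difference of 0.02 at 24 h.

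Pmaip1 encodes NOXA, which binds MCL1 and hands it over for degradation, and it was not called in any of the 12 comparisons. Its values ran from 6.86 to 7.48 over the control arrays and from 7.05 to 7.70 over the Cebpa-deleted arrays, with the 3 highest group means, 7.54, 7.41 and 7.28, in Cebpa-deleted cells at 2 and 24 h and in control cells at 24 h. The change from 0 to 2 h was 0.23 in control (SE 0.13, adjusted p = 0.128) and 0.27 in Cebpa-deleted cells (SE 0.13, adjusted p = 0.0754). Leaving out control replicate 3 at 2 h made the first 0.34 (adjusted p = 0.0375), and leaving out Cebpa-deleted replicate 3 at 0 h made the second 0.37 (adjusted p = 0.031).

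**Figure D3:**
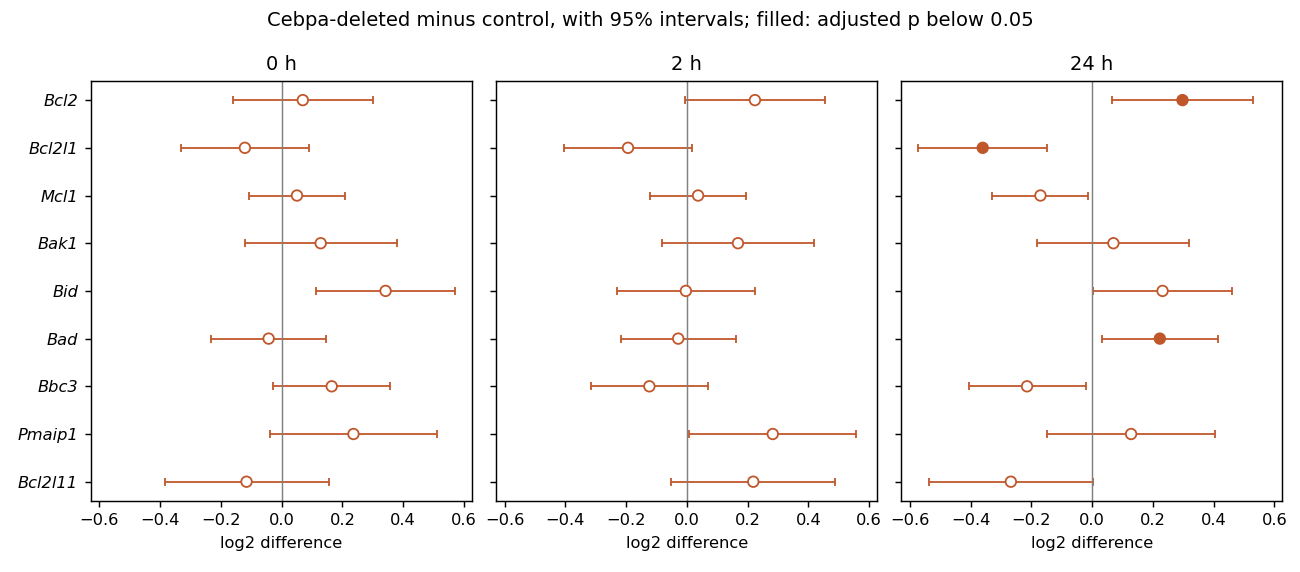
Difference between Cebpa-deleted and control cells on the log2 scale (horizontal axis) at 0, 2 and 24 h, with 95% intervals, for the 9 genes; filled points have an adjusted p below 0.05. At 24 h Bcl2 (0.30) and Bad (0.22) lie above 0 and Bcl2l1 (-0.36) below it, and no point is filled at 0 or 2 h.

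Differences at 24 h were set against those of genes of like level. With all genes split into 10 equal classes by mean level, the median difference of a class ran from 0.21 in the lowest and 0.30 in the next to -0.36 in the highest. Bcl2l1, Bcl2l11 and Mcl1, at or above the 89th percentile, had differences of -0.36, -0.27 and -0.17, and the medians of their classes were -0.36. Bcl2 and Bad, at 0.30 and 0.22, lay above the 0.02 of class 6, and Bbc3, at -0.21, lay below the 0.27 of class 4. Bid, at 0.23, stood beside the 0.17 of class 5.

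**Figure D4:**
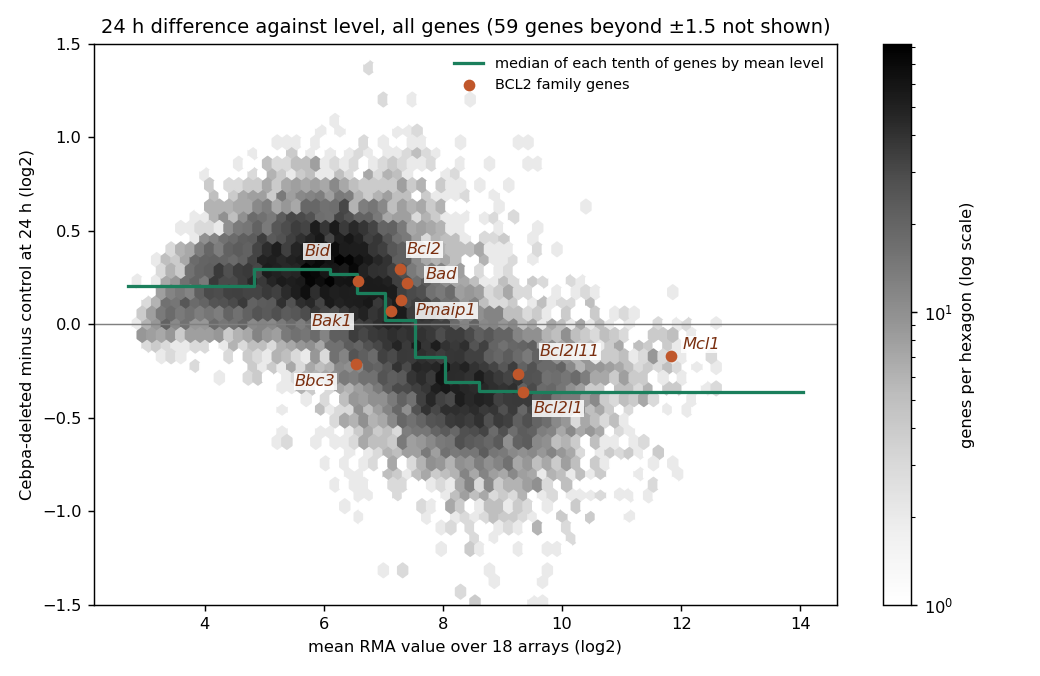
Difference between Cebpa-deleted and control cells at 24 h (vertical axis, log2) against mean RMA value over 18 arrays (horizontal axis, log2); grey hexagons count all genes on a log scale, the green line joins the medians of 10 equal classes of genes, and orange points are the 9 family genes. The line falls from 0.21 to -0.36; Bcl2 and Bad lie above it, Bbc3 below it, and Bcl2l1 on it.

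Several members tracked each other across arrays. Over the 18 arrays Mcl1 correlated with Bbc3 at 0.92, with Bcl2l11 at 0.81 and with Bcl2l1 at 0.73, and Bid ran against Bcl2l1 at -0.83 and Bbc3 at -0.80. Once each group's mean was subtracted, Mcl1 correlated with Bbc3 at 0.58, with Bcl2l11 at 0.09 and with Bcl2l1 at 0.01, while Bid stood at -0.60 with Bcl2l1 and -0.70 with Bbc3, and Bcl2 and Bbc3 stood at -0.74. The genes most like Mcl1 over the 18 arrays were Pum2, Pkn2 and Edem3 (0.98, 0.97 and 0.97), and those most like Bbc3 were Tmem11, Gm5617 and Rpsa (0.97, 0.96 and 0.96). For Bid they were Mmp23, Asb12 and Olfr1228 (0.95, 0.94 and 0.93), for Bcl2l1 Herpud1, Fh1 and Habp4 (0.94, 0.94 and 0.94), and for Bad Cacybp, Helb and Hpse (0.90, 0.87 and 0.86). These Pearson correlations describe 18 arrays in 6 groups and share each array's scale, and no p is given.

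The rest of the death machinery was taken as 57 genes in 6 lists, of which 49 were measured. None of these was called between genotypes at 0 h, where 0.858% of all genes were. At 2 h 2 of the 49 were called, beside 1.4% of all genes. Both were of the death receptor list and higher in Cebpa-deleted cells: Tnfrsf10b, the mouse TRAIL receptor, by 0.64 (SE 0.12, adjusted p = 0.0102) and Cflar, which blocks caspase 8 at the receptor, by 0.53 (SE 0.10, adjusted p = 0.0129). Both kept this direction and call under quantile normalization. All 8 endothelial markers were also higher at 2 h, their mean being 8.68 to 9.69 on Cebpa-deleted arrays against 7.95 to 8.28 on control arrays, and their part in these differences was not tested. At 24 h, 5 of the 49 were higher and 15 lower, where 24.3% and 26.4% of all genes were, with a median of -0.19 against 0.05 for all genes, and under quantile normalization 5 were higher and 8 lower, with a median of 0.01.

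The calls at 24 h were spread over the lists. Of 13 other BCL2 family genes, 4 were lower and 1 higher: the mitophagy receptors Bnip3 and Bcl2l13 differed by -0.97 (SE 0.19, adjusted p = 0.001) and -0.65 (SE 0.11, adjusted p = 0.000372), the survival gene Bcl2l2 by -0.31 (SE 0.10, adjusted p = 0.0169) and the BH3-only gene Hrk by 0.33 (SE 0.10, adjusted p = 0.0109). Of 10 apoptosome and caspase genes, 4 were lower: Cycs, cytochrome c, differed by -0.49 (SE 0.16, adjusted p = 0.018), Diablo, which disables inhibitors of apoptosis, by -0.40 (SE 0.10, adjusted p = 0.00457), Aifm1 by -0.31 (adjusted p = 0.031) and the nuclease Endog by -0.25 (adjusted p = 0.0191). Bnip3, Bcl2l13, Diablo, Endog and Hrk kept direction and call under quantile normalization, and Cycs (-0.14, adjusted p = 0.413), Bcl2l2 (-0.22, adjusted p = 0.0883) and Aifm1 (-0.02, adjusted p = 0.881) did not. Of 8 inhibitors of apoptosis, 2 were lower (Birc6 at -0.32, which was 0.04 under quantile normalization, and Birc3 at -0.28, which was 0.07) and 2 higher (Naip5 at 0.40, Naip2 at 0.29), none of these 4 being called under quantile normalization. Fas, of 6 death receptor genes, was higher by 0.38 (SE 0.15, adjusted p = 0.0378). Of 9 upstream regulators 3 were lower, Foxo3 among them, and 1 higher, and of 3 outer membrane channel genes, Vdac2 and Vdac3 were lower, at -0.26 and -0.23, but at 0.07 and 0.12, neither called, under quantile normalization. With the array's interquartile range in the model none of the 49 was called.

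Over time genes of the other lists fell in the first 2 h, 37 of 49 in control and 31 in Cebpa-deleted cells, where 39.4% and 36.2% of all genes fell. In each genotype 1 gene, Trp73, rose (30.7% and 26.9% of all genes). Their medians were -0.51 and -0.34, beside -0.08 and -0.06 for all genes, and under quantile normalization 17 fell and 3 rose in control and 13 fell and 5 rose in Cebpa-deleted cells, with medians of -0.11 and -0.07. Diablo fell by 0.82 in control and 0.79 in Cebpa-deleted cells, and Casp8, the caspase that cleaves Bid, by 0.82 and 0.64; under quantile normalization these falls were 0.61, 0.60, 0.36 and 0.24, all still called. From 2 to 24 h the ubiquitin ligases Huwe1, which marks MCL1 for degradation, and Birc6 rose, Huwe1 by 1.19 in control (adjusted p = 5.23e-06) and 0.76 in Cebpa-deleted cells (adjusted p = 0.000405) and Birc6 by 0.97 (adjusted p = 3.46e-06) and 0.49 (adjusted p = 0.00133). Both rises were called under quantile normalization as well. Bmf, a BH3-only gene, fell by 0.51 in control cells from 2 to 24 h (adjusted p = 0.0133).

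**Figure D5:**
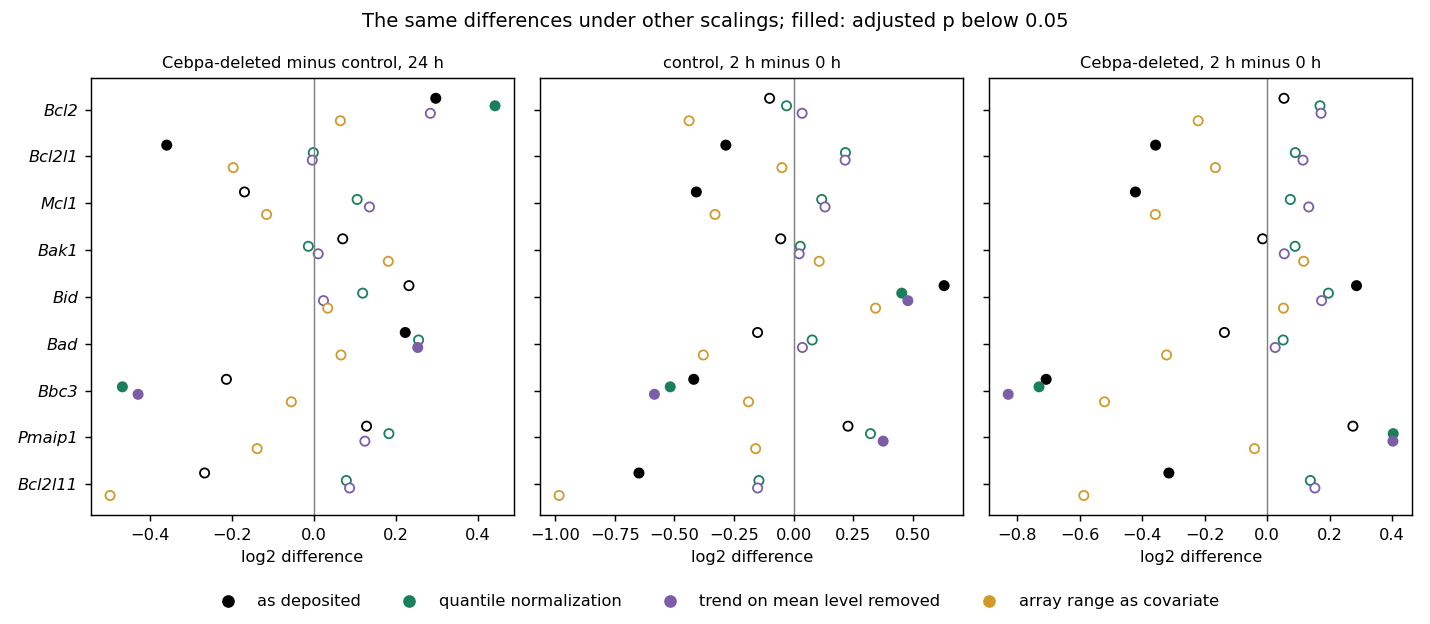
The same log2 differences (horizontal axis) as deposited and under 3 other scalings of the arrays, for Cebpa-deleted minus control at 24 h and for 2 h minus 0 h in each genotype; filled points have an adjusted p below 0.05. Bbc3 stays below 0 in every panel and Bid above 0, whereas Mcl1 and Bcl2l1 lie below 0 as deposited in the time panels and above 0 under quantile normalization and after removal of the trend.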

How the data were processed

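Biotin-labelled total RNA of isolated type II cells was hybridized to 18 Affymetrix arrays. Per the submitters' processing notes RMA, a method that corrects, normalizes and summarises probe intensities, gave the deposited log2 expression values. The RMA version, the genome build and which arrays were normalized together are not given in the sources used here. Intensities and background were not analysed here, so a member near background cannot be marked. The table had no gaps, and no pair of arrays held the same values.

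Samples were grouped by genotype and time from the labels. Of 35557 features, 21789 with 1 symbol gave 19938 genes (21698 features matched by Entrez identifier), the feature of highest mean being used for 999 genes and none of the members having several. Another 1621 features carried several symbols and 12147 carried none; these were not used, and no filter on low values was applied. A model with 6 group means was fitted to 18 arrays with limma 3.58.1 (lmFit, eBayes) in R 4.3.3, p-values two-sided and adjusted by Benjamini-Hochberg over all genes, intervals at 95%, and the fit was tested on simulated data. Intervals are those of the moderated model. The change from 0 to 2 h in Cebpa-deleted minus control cells was added after the data were seen. Named were all members, Cebpa and, of each other list, up to 4 called genes with the largest change per comparison; for each member, the 3 genes of highest correlation. The markers Il7r and Ptprc and the further time course of Foxo3, Foxo1, Casp8, Birc6, Naip5 and Bmf were picked after their values were seen where that rule did not name them. Promoters are RefSeq windows of 300 bases, used for 9 of the 10 genes, Bax among them. Pmaip1 was left out of the promoter search. The members, lists, motifs and settings were chosen with earlier results of these data known.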

Additional observations from a re-analysis of the deposited data

How the results depend on the processing

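Of 26 called differences of single members, 20 kept direction and call under median centring, 11 under quantile normalization and 10 once the trend with gene level was taken out of every array, an alternative chosen after seeing the data. With the array's interquartile range as a covariate 2 kept both, Bad's falls in control cells from 0 and from 2 to 24 h; that range differs between the groups, so the covariate and the groups are hard to separate. Signs that turned were nearly all falls from 0 h. Under quantile normalization and then trend removal, the change from 0 to 2 h was 0.22 and 0.22 for Bcl2l1 and 0.12 and 0.13 for Mcl1 in control cells, and 0.0901 and 0.11 for Bcl2l1, 0.0741 and 0.13 for Mcl1 and 0.14 and 0.15 for Bcl2l11 in Cebpa-deleted cells. The change from 0 to 24 h was 0.25 and 0.28 for Bcl2l1, 0.36 and 0.36 for Mcl1 and 0.0734 and 0.0867 for Bcl2l11 in control cells, and 0.36 and 0.38, 0.36 and 0.42, and 0.26 and 0.28 in Cebpa-deleted cells, and Bcl2l1 from 2 to 24 h in Cebpa-deleted cells was 0.27 and 0.27. The turned changes of Bcl2l1 and Mcl1 from 0 to 24 h were called as rises under both settings in both genotypes (adjusted p from 0.000103 to 0.0289). That of Bcl2l1 from 2 to 24 h was called too (adjusted p = 0.0336 and 0.0448). The turned changes of Bcl2l11 and those from 0 to 2 h were not called. With the range as a covariate, Bcl2 from 0 to 24 h in Cebpa-deleted cells was -0.12. The cause of these turns was not tested.

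Members called at 24 h between genotypes numbered 3 as deposited, 0 with the range as a covariate, 0 without the 2 narrowest Cebpa-deleted arrays (chosen after seeing the data; the 1 array left is assumed to vary like the other groups, so this says little about the 2), 1 with the replicate block and 0 to 5 with each array left out. Median centring gave 4, all lower, against 2 higher and 1 lower as deposited. For the 24 against 0 h shift of the genotype difference, quantile normalization, median centring and only the compared arrays gave 1 each (0 to 2 with an array left out). For the 24 against 2 h shift, median centring, the replicate block, the mean of features, the upper 60% of genes (without Bbc3, at the 39.7th percentile) and eBayes with trend and robust settings gave 1 each (0 to 1 with an array left out). From 0 to 2 h, control cells had 5, against 2 under quantile normalization, 3 after trend removal and 0 with the covariate; Cebpa-deleted cells had 5, against 2, 2 and 0, 3 with only the compared arrays, and 3 to 5 with an array left out. From 0 to 24 h, control cells had 5, 1 with the covariate and 3 to 5 with an array left out, and Cebpa-deleted cells 7, 4 after trend removal and 0 with the covariate. From 2 to 24 h, control cells had 1, and 2 under quantile normalization, median centring, the upper 60%, trend and robust eBayes or trend removal (1 to 2 with an array left out); Cebpa-deleted cells had 0, 3 under quantile normalization and under trend removal, 1 with the upper 60%, and 0 to 1 with an array left out.

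Counts over all genes ranged over these alternatives and a size threshold of 1.5-fold, outside the fits that left out an array, as follows. Between genotypes the 171 calls at 0 h went from 8 to 274, the 280 at 2 h from 1 to 999 and the 10110 at 24 h from 4 to 10368, and the shifts of the difference, 2859 and 6138 as deposited, from 1 to 4441 and from 0 to 6232. In control cells the 13979, 11939 and 2480 calls for 2 against 0, 24 against 0 and 24 against 2 h went from 940 to 14213, from 3369 to 12892 and from 744 to 3434, and in Cebpa-deleted cells the 12586, 15468 and 6254 went from 1195 to 12588, from 39 to 15511 and from 115 to 6296. Most of the lowest counts came with the covariate. Higher calls made up 48% of those at 24 h as deposited, 37.3% under median centring and 25% of the 4 with the covariate; 85.4% of those at 2 h, 72.3% under quantile normalization and 56.4% with the covariate; 64.1% and, with the covariate, 44.3% of those from 2 to 24 h in control cells; and 37.7% and, under quantile normalization, 50% in Cebpa-deleted cells.

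Arrays of 1 replicate number in both genotypes had deviations that correlated at -0.24 to 0.06, so no pairing by number was seen. At 2 h control replicate 3 correlated at -0.56 to 0.63 with Cebpa-deleted arrays of other numbers. With 3 arrays a group these values do not settle whether samples were paired or handled together. With the replicate block, 22 of the 26 calls of members kept direction and call, and 4 lost it: between genotypes at 24 h Bcl2 (0.29, adjusted p = 0.0829) and Bad (0.21, adjusted p = 0.117), Mcl1 from 0 to 24 h in control cells (-0.18, adjusted p = 0.0723) and Bcl2l11 from 0 to 2 h in Cebpa-deleted cells (-0.29, adjusted p = 0.0621). Bcl2l11 gained a call in the 24 against 2 h shift (-0.57, adjusted p = 0.0358).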
